A study of Homo sapiens with 6 samples.

Results

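The spliceosome protein genes described here are the Sm proteins (SNRPB to SNRPG and SNRPN), the proteins particular to single small nuclear ribonucleoproteins (snRNPs; SNRNP, SNRPA and SNRPC genes), the LSM family, the PRPF family, both U2AF subunits with the U2AF1-related gene U2AF1L4, and EFTUD2. They were chosen by gene symbol alone, and 50 of the 19571 genes in the expression table fell under the rule. RNA-seq was done on LNCaP, a human prostate cancer cell line with luminal features that depends on the androgen receptor. The tested libraries came from LNCaP cells stably overexpressing wild-type KDM4B with a Flag tag (n = 3, numbered 1, 2 and 4). KDM4B is a demethylase of methylated lysine on histone H3. The controls came from LNCaP cells stably transfected with vector (n = 3, numbered 1, 2 and 3). All cells were kept in RPMI with 10% CFBS for 3 days before harvest. The labels do not say whether the transfected line is 1 clone or a pool, or whether the libraries of a group came from separate cultures, so p-values measure the spread between these libraries, which may be technical. The study's design asks about alternative splicing across the genome.

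The spliceosome removes introns and is built from 5 snRNPs, each a small RNA carried by a ring of proteins. Sm proteins form the ring on U1, U2, U4 and U5 RNA, and LSM2 to LSM8 form the related ring on U6 RNA. The U1 snRNP recognises the 5′ splice site, U2AF and the U2 snRNP recognise the 3′ end of the intron and the branch point, and the U4/U6.U5 tri-snRNP then joins and is rearranged into the active enzyme. A second, minor spliceosome with U11 and U12 RNA removes a rare class of introns, and the U7 snRNP trims histone pre-mRNA instead of splicing.

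Expression was deposited as FPKM (fragments per kilobase of transcript, scaled to the mapped total), and FPKM + 1 was compared on the log2 scale with limma, with p-values adjusted over all 12148 tested genes. KDM4B itself had 26.3, 27.2 and 25.8 FPKM in the KDM4B-labelled libraries, against 24.7, 25.2 and 25.3 FPKM in the vector libraries. That log2 fold change of 0.07 did not pass the test as deposited (adjusted p = 0.113), although the groups did not overlap. KDM4B was called higher after median-of-ratios scaling (0.31, adjusted p = 1.93e-05) and on event counts (0.35, adjusted p = 0.000437), and the first group is called by its label throughout. The 10 luminal prostate genes checked all averaged at least 1 FPKM, with summed levels of 1812 to 1874 FPKM in the KDM4B-labelled libraries and 4403 to 4584 FPKM in the vector libraries. Of 10 markers of other cell types, 7 were in the table and 1 averaged at least 1 FPKM, with summed levels of 3.32 to 3.63 FPKM in the KDM4B-labelled libraries and 3.5 to 3.8 FPKM in the vector libraries. Ribosomal RNA genes made up 10.5%, 8.14% and 10.2% of all FPKM in the KDM4B-labelled libraries and 0.473%, 0.144% and 0.147% in the vector libraries. The part of the ribosomal RNA and of the luminal genes in the members' changes was not tested. Over all tested genes the median log2 fold change was -0.22 as deposited. Every change is therefore given on 2 scales, as deposited and after median-of-ratios scaling, which set that median to 0. In bulk RNA, fewer cells of a kind and less RNA per cell cannot be told apart.

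As deposited, 13 of the 49 tested members were higher and 18 were lower in the KDM4B-labelled libraries, and 18 did not pass the test. Among all tested genes 13.4% were called higher and 60.3% lower. The members' median log2 fold change was -0.07, against -0.22 for all genes. After scaling, 32 members were higher, 10 were lower and 7 did not pass, with a median of 0.17, where 34.1% of all genes were called higher and 33.9% lower. The largest rise as deposited was 0.38 (SNRNP70), and U2AF1L4, at -1.03, was the 1 member that changed by more than 2-fold. The groups did not overlap for 15 members that were higher and 22 that were lower as deposited, against 14.6% and 61.7% of all tested genes. The remaining member, the pseudogene SNRPD2P2, had 0.06 FPKM in 1 KDM4B-labelled library and was listed at 0 in the other 5 libraries, so it was not tested.

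On both scales, 23 members were called in the same direction. The 13 higher on both were SNRPD2, SNRPE, SNRPF, SNRNP70, U2AF2, PRPF4, PRPF8, SNRNP200, EFTUD2, LSM3, LSM7, SNRNP25 and SNRNP35, where 13.4% of all genes had that pattern. All 13 kept both calls with any 1 of the 6 libraries left out. The 10 lower on both were LSM2, LSM6, LSM8, PRPF40B, SNRNP48, U2AF1, U2AF1L4, SNRNP40, LSM10 and LSM14A, where 33.9% of all genes had that pattern. Of these 10, 6 kept both calls with any 1 library left out, and LSM2, LSM6, LSM8 and U2AF1 lost the call after scaling. Another 17 members were called only after scaling, all higher, and 6 only as deposited, all lower. LSM4 and SNRPN were called lower as deposited and higher after scaling, a pattern of 2.2% of all genes, and LSM11 was called on neither scale.

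**Figure D1:**
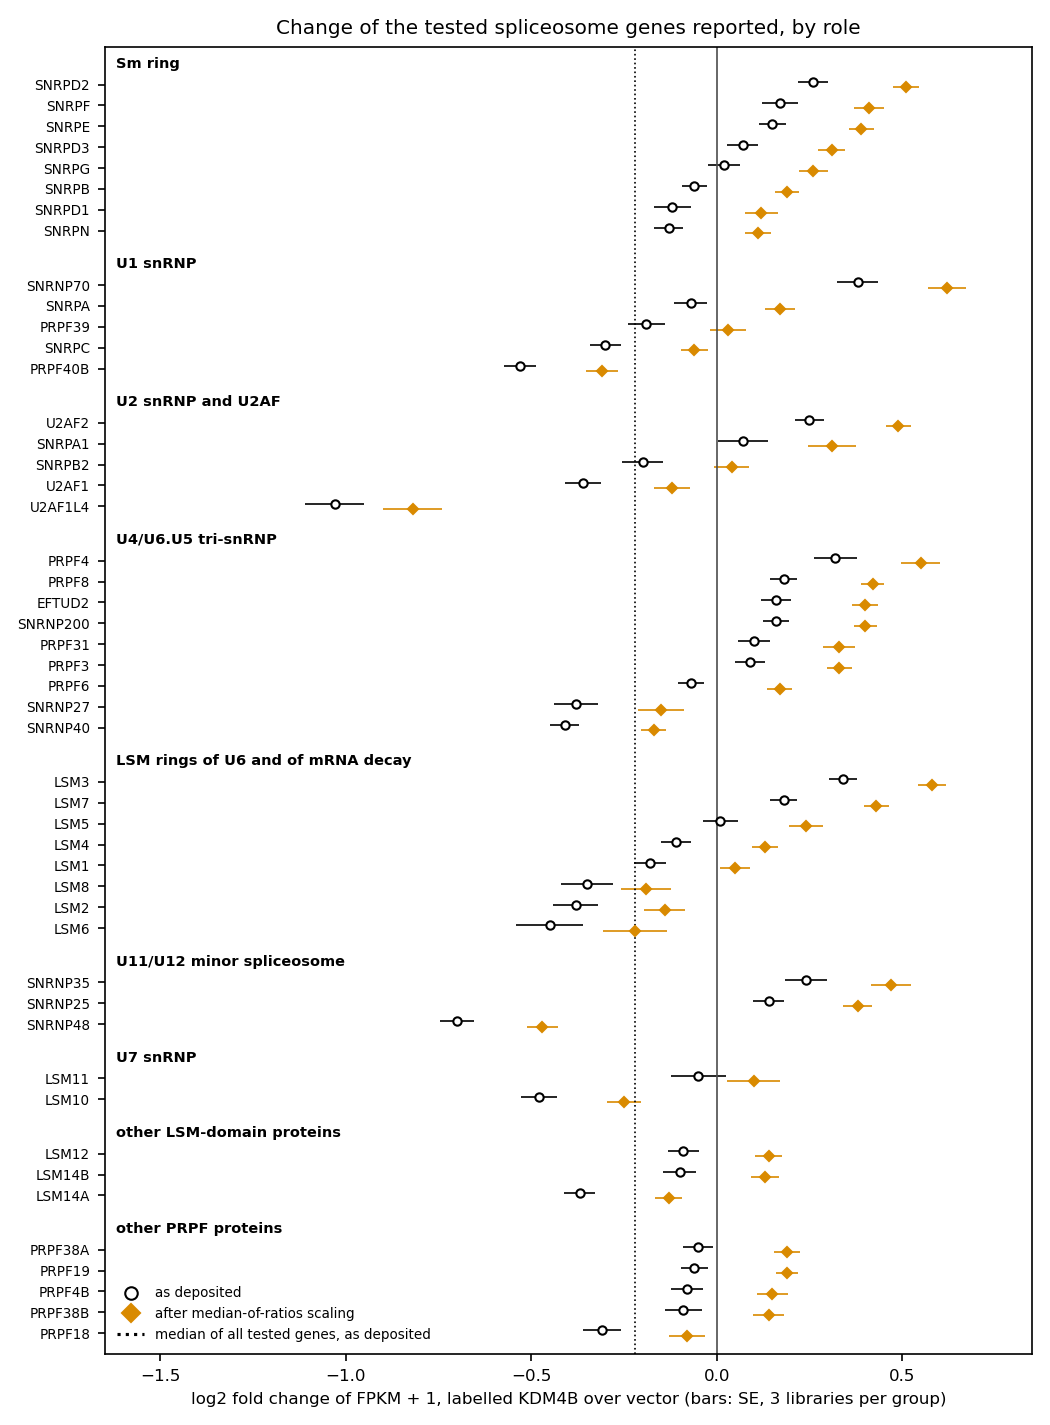
Log2 fold change of FPKM + 1, KDM4B-labelled libraries over vector, for the tested members reported here, by role; open circles are values as deposited, filled diamonds are values after scaling, bars are standard errors and the dotted line is the all-gene median of -0.22. Scaling moves every plotted member to the right, and the 8 Sm ring genes are all above 0 after it, while U2AF1L4 lies farthest to the left on both scales.

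The promoters of the genes with the largest changes are shown first, SNRNP70 and LSM3 for the rises and U2AF1L4 and SNRNP48 for the falls. Each runs 5′ to 3′ on the gene's own strand, from 250 bases before to 50 bases after the start, in RefSeq's annotation of GRCh38.p14. SNRNP70 lies at chr19:49085201-49085500 (plus strand), LSM3 at chr3:14178567-14178866 (plus strand), U2AF1L4 at chr19:35745369-35745668 (minus strand) and SNRNP48 at chr6:7589948-7590247 (plus strand). Capitals mark matches, on either strand, to the motifs listed after the sequences.
SNRNP70: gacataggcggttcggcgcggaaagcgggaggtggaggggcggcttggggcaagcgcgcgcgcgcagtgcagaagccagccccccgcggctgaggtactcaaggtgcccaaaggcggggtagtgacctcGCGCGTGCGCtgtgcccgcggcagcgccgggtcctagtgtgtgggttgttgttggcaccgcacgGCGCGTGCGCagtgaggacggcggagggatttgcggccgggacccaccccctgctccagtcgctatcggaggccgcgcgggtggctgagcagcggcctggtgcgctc
LSM3: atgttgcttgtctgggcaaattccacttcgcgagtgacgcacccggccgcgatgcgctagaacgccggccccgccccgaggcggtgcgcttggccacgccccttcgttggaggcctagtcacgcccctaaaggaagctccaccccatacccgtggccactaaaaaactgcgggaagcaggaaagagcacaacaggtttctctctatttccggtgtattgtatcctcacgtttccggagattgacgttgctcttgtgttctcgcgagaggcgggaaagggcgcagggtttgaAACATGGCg
U2AF1L4: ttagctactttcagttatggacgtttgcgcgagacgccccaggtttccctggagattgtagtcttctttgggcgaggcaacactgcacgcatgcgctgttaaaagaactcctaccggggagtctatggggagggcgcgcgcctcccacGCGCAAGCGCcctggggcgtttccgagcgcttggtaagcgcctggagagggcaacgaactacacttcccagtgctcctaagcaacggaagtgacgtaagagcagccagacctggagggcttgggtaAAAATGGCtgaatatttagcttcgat
SNRNP48: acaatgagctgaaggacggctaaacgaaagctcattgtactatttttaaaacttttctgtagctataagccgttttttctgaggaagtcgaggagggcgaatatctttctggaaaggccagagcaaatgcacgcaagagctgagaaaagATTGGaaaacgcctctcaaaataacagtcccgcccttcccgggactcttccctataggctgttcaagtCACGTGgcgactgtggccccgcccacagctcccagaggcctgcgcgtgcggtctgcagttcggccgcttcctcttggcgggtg

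Of the 49 tested members, 41 had a promoter in the RefSeq table, and the same motifs were searched on both strands in all 27305 promoters of that table. Those 27305 promoters were not limited to genes with expression here, whereas the members' promoters were, so the 2 sets are unlike. The ETS motif CCGGAAG was in 36.6% of the members' promoters and in 10.7% of all promoters. The NRF1 motif, GCGCA and GCGC with any 1 base between them, was marked 2 times in SNRNP70 and 1 time in U2AF1L4, and was in 19.5% of the members' promoters and 6.28% of all. The YY1 motif AANATGGC, marked in LSM3 and U2AF1L4, was in 12.2% and 6.82%, and the CCAAT box, marked in SNRNP48, was in 48.8% and 35.7%. The E-box CACGTG, also marked in SNRNP48, was in 4.88% of members and 7.43% of all promoters, and the CRE motif TGACGTCA in 2.44% and 1.98%. No member's promoter held the full androgen response element, AGAACA and TGTTCT with any 3 bases between them, which was in 0.00366% of all promoters. Genes that rose and genes that fell shared the NRF1 and YY1 motifs, as SNRNP70, LSM3 and U2AF1L4 show. These are matches of letters in a fixed window, not measured binding.

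The Sm ring genes were all called higher after scaling (8 of 8, median log2 fold change 0.29), whereas as deposited 3 were higher, 1 was lower and 4 did not pass (median 0.05). Over all tested genes 34.1% were called higher and 33.9% lower after scaling, and 13.4% higher and 60.3% lower as deposited. SNRPD2, which pairs with SNRPD1 in the ring, had 146, 153 and 154 FPKM in the KDM4B-labelled libraries, against 129, 129 and 120 FPKM in the vector libraries. The groups did not overlap, and the gene rose by 0.26 ± 0.040 (SE) as deposited (adjusted p = 9.85e-05) and by 0.51 after scaling. SNRPE and SNRPF, neighbours in the ring with SNRPG, moved together. SNRPE had 51.0, 52.5 and 53.3 FPKM in the KDM4B-labelled libraries, against 47.3, 46.2 and 47.4 FPKM in the vector libraries (log2 fold change 0.15, adjusted p = 0.00277, and 0.39 after scaling). SNRPF had 72.4, 80.0 and 71.0 FPKM in the KDM4B-labelled libraries, against 68.2, 64.1 and 66.0 FPKM in the vector libraries (0.17, adjusted p = 0.00795, and 0.41 after scaling). Neither gene's groups overlapped. SNRPG differed from them as deposited, at 56.8 ± 1.9 FPKM in the KDM4B-labelled libraries and 56.1 ± 2.6 FPKM in the vector libraries (± SD, 3 libraries each), with overlapping groups (0.02, adjusted p = 0.715), and was called higher after scaling (0.26).

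SNRPB encodes the SmB and SmB′ proteins and was the most abundant member, at 154, 155 and 154 FPKM in the KDM4B-labelled libraries against 166, 159 and 156 FPKM in the vector libraries. Its direction turned with the scale, from a log2 value of -0.06 that did not pass as deposited (adjusted p = 0.154) to 0.19 after scaling (adjusted p = 0.000566). SNRPN encodes SmN, a close relative of SmB from the imprinted Prader-Willi region, and its reads could be split with SNURF, which shares its transcript and has a row of its own. It had 108, 115 and 114 FPKM in the KDM4B-labelled libraries, against 124, 127 and 118 FPKM in the vector libraries, so the groups did not overlap. SNRPN was called lower as deposited (-0.13 ± 0.040, adjusted p = 0.0117) and higher after scaling (0.11, adjusted p = 0.0142). The first call was lost without KDM4B replicate 1 (adjusted p = 0.0525) or vector replicate 2 (0.0599), the second without vector replicate 3 (0.0602). SNRPD3 (80.3 ± 3.8 FPKM in the KDM4B-labelled libraries, 76.5 ± 1.5 FPKM in the vector libraries) and SNRPD1 (41.8 ± 2.2 FPKM in the KDM4B-labelled libraries, 45.4 ± 2.5 FPKM in the vector libraries) had overlapping groups as deposited, and both were called higher only after scaling (0.31 and 0.12). The SNRPD1 call was lost in 4 of the 6 fits that left out 1 library (adjusted p up to 0.141).

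Proteins of the U1 snRNP, which reads the 5′ splice site, went separate ways. SNRNP70 encodes U1-70K, which binds U1 RNA directly, and it had 77.9, 81.4 and 69.5 FPKM in the KDM4B-labelled libraries against 56.4, 60.8 and 57.8 FPKM in the vector libraries. The groups did not overlap, although library 4 was lower than the other KDM4B-labelled libraries. SNRNP70 rose by 0.38 ± 0.055 (SE) as deposited (adjusted p = 7.03e-05) and by 0.62 after scaling (adjusted p = 2.18e-06), the largest rise of any member on either scale. SNRPC encodes U1-C, which steadies the pairing of U1 RNA with the splice site, and it had 54.8, 59.3 and 59.0 FPKM in the KDM4B-labelled libraries, against 73.8, 70.8 and 69.1 FPKM in the vector libraries. It fell by 0.30 as deposited (adjusted p = 5.88e-05), with groups that did not overlap, and did not pass after scaling (-0.06, adjusted p = 0.178). The third U1-specific protein, U1-A, encoded by SNRPA, had 38.2, 38.1 and 35.6 FPKM in the KDM4B-labelled libraries, against 38.8, 38.1 and 40.8 FPKM in the vector libraries. SNRPA did not pass as deposited (-0.07) and was higher after scaling (0.17, adjusted p = 0.00454).

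PRPF40B and PRPF39 are human relatives of proteins of the yeast U1 snRNP. PRPF40B had 9.87, 9.73 and 9.73 FPKM in the KDM4B-labelled libraries and 14.9, 14.9 and 14.0 FPKM in the vector libraries, a separation far wider than the spread of either group. It fell by 0.53 ± 0.044 (SE) as deposited (adjusted p = 7.3e-07) and by 0.31 after scaling (adjusted p = 0.000114). PRPF39 was called lower as deposited (-0.19, adjusted p = 0.00432) and was not called after scaling (0.03). The 6 genes of this role counted 1 higher, 3 lower and 2 not called as deposited, and 3 higher, 1 lower and 2 not called after scaling. Among all tested genes 13.4% were higher and 60.3% lower as deposited, and 34.1% higher and 33.9% lower after scaling.

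U2AF reads the 3′ splice site as a pair of subunits, and their transcripts moved apart. U2AF2 encodes the large subunit, which binds the polypyrimidine tract, and had 116, 119 and 113 FPKM in the KDM4B-labelled libraries against 98.02, 101 and 94.0 FPKM in the vector libraries. It rose by 0.25 ± 0.038 (SE) as deposited (adjusted p = 0.000124) and by 0.49 after scaling (adjusted p = 6.26e-07). U2AF1 encodes the small subunit, which contacts the terminal AG of the intron, and had 80.1, 79.0 and 80.1 FPKM in the KDM4B-labelled libraries against 111, 101 and 96.8 FPKM in the vector libraries. Neither gene's groups overlapped. U2AF1 fell by 0.36 ± 0.048 (SE) as deposited (adjusted p = 3.1e-05). After scaling its fall of 0.12 passed narrowly (adjusted p = 0.0466) and was lost in 5 of the 6 fits that left out 1 library (adjusted p up to 0.149). RefSeq also lists a near-identical copy of U2AF1 on GRCh38 under the synonym U2AF1L5, so reads of U2AF1 may have been divided. Within a library no scaling enters the ratio of the subunits, which was 0.693, 0.663 and 0.711 in the KDM4B-labelled libraries and 1.14, 1.0 and 1.03 in the vector libraries. That ratio was picked after the values were seen and is given without a test.

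U2AF1L4 encodes U2AF26, which can take the place of the small subunit, and was the member that changed most. It had 3.59, 4.03 and 4.11 FPKM in the KDM4B-labelled libraries and 9.65, 9.75 and 7.78 FPKM in the vector libraries. The lowest vector library was well above the highest KDM4B-labelled library. U2AF1L4 fell by 1.03 ± 0.079 (SE) as deposited (adjusted p = 3.9e-07) and by 0.82 after scaling (adjusted p = 6.82e-06). The remaining genes of this role encode the U2-A′ and U2-B″ proteins of the U2 snRNP. SNRPA1 had 34.0, 36.4 and 31.5 FPKM in the KDM4B-labelled libraries, against 35.7, 31.5 and 29.8 FPKM in the vector libraries, with overlapping groups (0.07, adjusted p = 0.353, and higher after scaling, 0.31). SNRPB2 was called lower as deposited (-0.20, adjusted p = 0.00686) and was not called after scaling (0.04, adjusted p = 0.516).

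**Figure D2:**
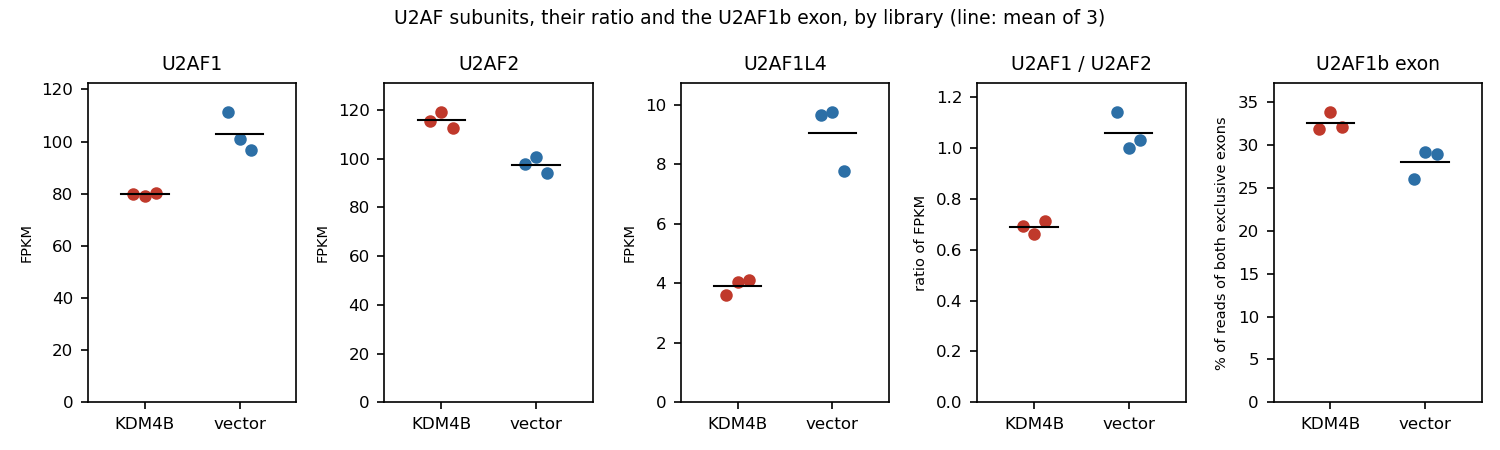
FPKM as deposited of U2AF1, U2AF2 and U2AF1L4, the ratio of U2AF1 to U2AF2 FPKM and the percentage of reads on the U2AF1b exon, with 1 point per library, a line at the mean of 3 and axes that start at 0. U2AF2 and the U2AF1b share were higher, and U2AF1, U2AF1L4 and the ratio lower, in every KDM4B-labelled library than in any vector library, and the U2AF1b difference did not pass the adjusted test.

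The core of the tri-snRNP rose together. PRPF8 is the scaffold of the catalytic centre, SNRNP200 encodes the helicase Brr2 that unwinds U4 from U6, and EFTUD2 encodes the GTPase Snu114 that controls it. PRPF8 had 105, 108 and 102 FPKM in the KDM4B-labelled libraries, against 91.0, 93.7 and 92.2 FPKM in the vector libraries. SNRNP200 had 80.3, 81.4 and 78.1 FPKM in the KDM4B-labelled libraries, against 70.1, 72.7 and 71.2 FPKM in the vector libraries. EFTUD2 had 34.5, 35.9 and 34.0 FPKM in the KDM4B-labelled libraries, against 30.2, 31.7 and 31.0 FPKM in the vector libraries. None of these groups overlapped, and the rises were close in size, at 0.18, 0.16 and 0.16 as deposited (adjusted p = 0.000734, 0.00142 and 0.00303) and 0.42, 0.40 and 0.40 after scaling. SNRNP40, the WD-repeat protein bound to the same U5 particle, went the other way. It had 42.0, 44.99 and 43.9 FPKM in the KDM4B-labelled libraries and 59.8, 58.1 and 57.3 FPKM in the vector libraries, and fell by 0.41 ± 0.039 (SE) as deposited (adjusted p = 2.31e-06) and by 0.17 after scaling (adjusted p = 0.000926). The ratio of SNRNP40 to PRPF8 was 0.416 ± 0.015 in the KDM4B-labelled libraries and 0.633 ± 0.021 in the vector libraries (± SD, 3 libraries each), a ratio also picked after the values were seen.

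Among the U4/U6 proteins, PRPF4, which forms a complex with PRPF3, had 18.3, 19.3 and 16.3 FPKM in the KDM4B-labelled libraries against 14.0, 14.3 and 14.2 FPKM in the vector libraries. It rose by 0.32 ± 0.057 (SE) as deposited (adjusted p = 0.000325) and by 0.55 after scaling, with groups that did not overlap. PRPF31, which bridges U4 RNA and U5 and is mutated in a form of retinitis pigmentosa, had 27.6, 26.5 and 25.7 FPKM in the KDM4B-labelled libraries against 25.5, 24.8 and 24.0 FPKM in the vector libraries. PRPF3 averaged 29.4 ± 1.1 FPKM in the KDM4B-labelled libraries and 27.6 ± 0.42 FPKM in the vector libraries (± SD, 3 libraries each). Both had groups that did not overlap and missed the threshold as deposited (0.10, adjusted p = 0.0592, and 0.09, adjusted p = 0.0682), and both were called higher after scaling (0.33 each). PRPF6, which links U5 to U4/U6, had 55.8, 55.1 and 57.2 FPKM in the KDM4B-labelled libraries, against 58.2, 59.5 and 59.0 FPKM in the vector libraries. Its value of -0.07 as deposited did not pass (adjusted p = 0.0878) and it was called higher after scaling (0.17). SNRNP27, a tri-snRNP protein with an arginine- and serine-rich domain, was called lower as deposited (-0.38, adjusted p = 0.000117) and just missed the threshold after scaling (-0.15, adjusted p = 0.0532).

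**Figure D3:**
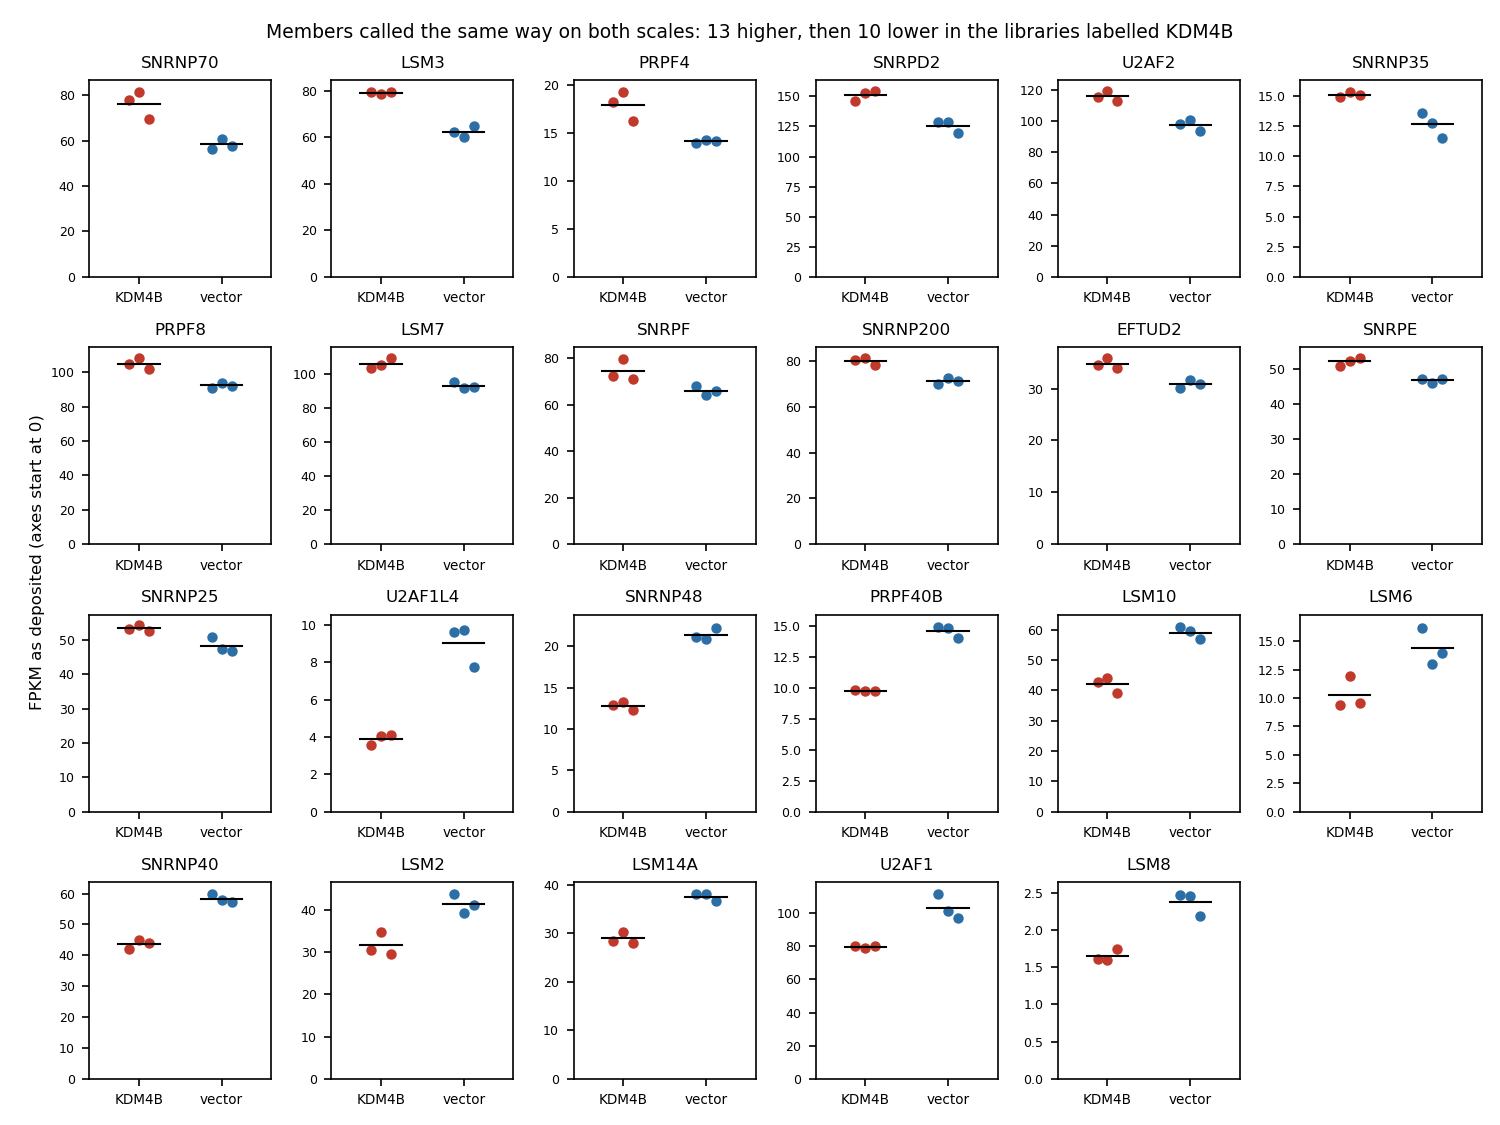
FPKM as deposited in each library for the 23 members called in the same direction on both scales, with 1 point per library, a line at the mean of 3 and axes that start at 0; the first 13 panels are the rises and the last 10 the falls. In none of the panels do the KDM4B-labelled libraries overlap the vector libraries.

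LSM proteins form 2 rings that share LSM2 to LSM7. LSM8 completes the nuclear ring on U6 RNA, and LSM1 completes the cytoplasmic ring that promotes decapping of mRNA. As deposited 2 of the 8 genes were higher and 5 lower, and after scaling 4 were higher and 3 lower, where 13.4% of all tested genes were higher and 60.3% lower as deposited, and 34.1% higher and 33.9% lower after scaling. LSM3 had 79.6, 78.6 and 79.7 FPKM in the KDM4B-labelled libraries and 62.3, 60.2 and 64.9 FPKM in the vector libraries. It rose by 0.34 ± 0.038 (SE) as deposited (adjusted p = 8.22e-06) and by 0.58 after scaling (adjusted p = 3.55e-07). LSM7 rose as well, with 104, 105 and 109 FPKM in the KDM4B-labelled libraries against 95.4, 92.0 and 92.4 FPKM in the vector libraries (0.18, adjusted p = 0.000675, and 0.43 after scaling). Both genes encode subunits common to the 2 rings. LSM4, also common to both, had 116, 123 and 117 FPKM in the KDM4B-labelled libraries and 134, 127 and 123 FPKM in the vector libraries, whose nearest libraries were almost equal. LSM4 was called lower as deposited (-0.11, adjusted p = 0.0333), a call lost without KDM4B replicate 1 or 4 or vector replicate 1 or 2 (adjusted p 0.0609 to 0.139), and higher after scaling (0.13, adjusted p = 0.00699).

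The shared subunits LSM2 and LSM6 fell, beside LSM3 and LSM7 that rose. LSM2 had 30.5, 34.8 and 29.5 FPKM in the KDM4B-labelled libraries, against 43.7, 39.2 and 41.2 FPKM in the vector libraries (-0.38, adjusted p = 0.000146, and -0.14 after scaling, adjusted p = 0.0388). LSM6 had 9.41, 11.97 and 9.56 FPKM in the KDM4B-labelled libraries, against 16.2, 13.1 and 13.9 FPKM in the vector libraries (-0.45, adjusted p = 0.000816, and -0.22 after scaling, adjusted p = 0.0418). Groups did not overlap as deposited and did overlap after scaling for both genes. LSM8 had the lowest level of the tested members in the KDM4B-labelled libraries, at 1.61, 1.59 and 1.74 FPKM, against 2.47, 2.45 and 2.19 FPKM in the vector libraries (-0.35, adjusted p = 0.000727, and -0.19 after scaling, adjusted p = 0.0317). After scaling the calls of LSM2, LSM6 and LSM8 were each lost in 4 of the 6 fits that left out 1 library, with adjusted p up to 0.138, 0.157 and 0.0948. LSM1 averaged 18.7 ± 0.49 FPKM in the KDM4B-labelled libraries and 21.3 ± 0.63 FPKM in the vector libraries (± SD, 3 libraries each), lower as deposited (-0.18, adjusted p = 0.00232) and not called after scaling (0.05, adjusted p = 0.291). The ratio of LSM8 to LSM1 was 0.0843, 0.0845 and 0.0959 in the KDM4B-labelled libraries and 0.113, 0.119 and 0.101 in the vector libraries, a description picked after the values were seen. LSM5 did not pass as deposited (0.01, adjusted p = 0.819) and higher after scaling (0.24).

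In the minor spliceosome, the U11/U12 proteins split. SNRNP48, which takes part in reading the 5′ splice site of minor introns, had 12.9, 13.2 and 12.2 FPKM in the KDM4B-labelled libraries and 21.1, 20.8 and 22.2 FPKM in the vector libraries. The gap between the groups was several times the spread within either. SNRNP48 fell by 0.70 ± 0.046 (SE) as deposited (adjusted p = 1.04e-07) and by 0.47 after scaling (adjusted p = 4.2e-06). SNRNP35, the U11 counterpart of U1-70K, had 14.9, 15.4 and 15.1 FPKM in the KDM4B-labelled libraries and 13.6, 12.8 and 11.6 FPKM in the vector libraries (0.24, adjusted p = 0.00197, and 0.47 after scaling). SNRNP25 had 53.1, 54.2 and 52.7 FPKM in the KDM4B-labelled libraries and 50.9, 47.3 and 46.7 FPKM in the vector libraries (0.14, adjusted p = 0.00942, and 0.38 after scaling). These groups did not overlap for either gene. The other proteins of the minor spliceosome, a list of 6 genes outside the members, were all called lower as deposited and 4 were lower after scaling, with none higher, where 60.3% of all tested genes were lower as deposited and 33.9% after scaling. ZCRB1 (-0.46, and -0.23 after scaling), ZMAT5 (-0.49 and -0.26) and PDCD7 (-0.37 and -0.15) had the lowest p of that list.

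The U7 snRNP carries LSM10 and LSM11 in place of SmD1 and SmD2. LSM10 had 42.9, 44.1 and 39.0 FPKM in the KDM4B-labelled libraries and 60.8, 59.5 and 57.0 FPKM in the vector libraries. It fell by 0.48 ± 0.049 (SE) as deposited (adjusted p = 3.7e-06) and by 0.25 after scaling (adjusted p = 0.000764). LSM11 was near the lower limit of the test, at 1.59, 1.71 and 1.71 FPKM in the KDM4B-labelled libraries and 1.76, 1.95 and 1.59 FPKM in the vector libraries, with overlapping groups on both scales (-0.05, adjusted p = 0.559). Of the 8 genes listed as partners of U7 in histone mRNA processing, 2 were higher and 6 lower as deposited, and 2 were higher and none lower after scaling, where 13.4% and 60.3% of all tested genes were called in these directions as deposited and 34.1% and 33.9% after scaling. SLBP, which binds the histone stem-loop, had a log2 fold change of -0.29 as deposited (adjusted p = 0.000209) and -0.05 after scaling (not called). SYMPK rose on both scales (0.22 and 0.45), and ERI1 was lower as deposited alone (-0.25).

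Further LSM-domain genes act outside the rings. LSM14A, a protein of P-bodies that takes part in translational repression, had 28.5, 30.3 and 28 FPKM in the KDM4B-labelled libraries and 38, 38.1 and 36.6 FPKM in the vector libraries. It fell by 0.37 ± 0.043 (SE) as deposited (adjusted p = 1.17e-05) and by 0.13 after scaling (adjusted p = 0.00884). Its paralog LSM14B had 21.3, 23.4 and 21.5 FPKM in the KDM4B-labelled libraries and 23.8, 23.4 and 24.1 FPKM in the vector libraries, and LSM12 had 19.6, 20.6 and 20.1 FPKM in the KDM4B-labelled libraries and 22.01, 20.9 and 21.6 FPKM in the vector libraries. Neither passed as deposited (-0.10 and -0.09), and both were called higher after scaling (0.13 and 0.14). Of the 8 decapping and 5′ decay partners of LSM1 to LSM7, 4 were lower and none higher as deposited, and 4 were higher and 1 lower after scaling. The decapping enzyme DCP2 fell on both scales (-0.55 and -0.33), and DCP1A (-0.27) and XRN1 (-0.25) as deposited alone.

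The other PRPF genes act in activation or catalysis. Of these 5 genes, none was called higher and 1 lower as deposited, and 4 were higher and none lower after scaling. Among all tested genes 13.4% were higher and 60.3% lower as deposited, and 34.1% higher and 33.9% lower after scaling. PRPF19, the ubiquitin ligase at the centre of the PRP19 complex, had 124, 132 and 125 FPKM in the KDM4B-labelled libraries and 135, 132 and 130 FPKM in the vector libraries, with overlapping groups. Its direction turned with the scale (-0.06, adjusted p = 0.186, and 0.19 after scaling, adjusted p = 0.000272). PRPF38A, a protein of the precatalytic complex, had 32.9, 35.0 and 33.3 FPKM in the KDM4B-labelled libraries and 35.8, 35.2 and 33.9 FPKM in the vector libraries, and its paralog PRPF38B had 15.3, 17.2 and 15.7 FPKM in the KDM4B-labelled libraries and 17.2, 17.3 and 17.1 FPKM in the vector libraries. Both were uncalled as deposited (-0.05 and -0.09) and higher after scaling (0.19 and 0.14). The kinase gene PRPF4B behaved likewise (-0.08 and 0.15). PRPF18, a factor of the second catalytic step, was lower as deposited (-0.31, adjusted p = 0.00021) and was not called after scaling (-0.08, adjusted p = 0.15).

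Partner lists gave the setting for these changes, and they were chosen with earlier results of these data known. Of 17 genes for assembly of the Sm ring and snRNP biogenesis, 4 were higher and 8 lower as deposited, and 10 were higher and 3 lower after scaling. GEMIN4, of the SMN complex, rose by 0.38 (0.61 after scaling), while the import adaptor gene SNUPN fell by 0.40 (0.17 after scaling) and SMN2, nearly identical to SMN1 so that the split of their reads is uncertain, fell by 0.36 (0.12 after scaling). Of the 10 measured tri-snRNP partners, 2 were higher and 2 lower as deposited, and 8 were higher and none lower after scaling. There the helicase gene DDX23 rose (0.22 and 0.45), and NHP2L1 (-0.25) and TXNL4A (-0.28) were lower as deposited alone. Of 8 other spliceosomal helicases 3 were higher and 4 lower as deposited, and 5 higher and none lower after scaling. DDX42 (-0.31), DHX16 (-0.27) and DDX39B (-0.29) were lower as deposited alone. The 3 higher on both scales were DHX15 (0.18 and 0.42), DHX38 (0.16 and 0.39) and AQR (0.12 and 0.35). The PRP19 complex and activated spliceosome list of 15 genes had 2 higher and 12 lower as deposited, and 5 in each direction after scaling. Over all tested genes 13.4% were higher and 60.3% lower as deposited, and 34.1% higher and 33.9% lower after scaling, shares that all the partner lists are to be read against. CWC15 rose (0.43 and 0.67), and BCAS2 (-0.38 and -0.14) and CRNKL1 (-0.50 and -0.28) fell on both scales.

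**Figure D4:**
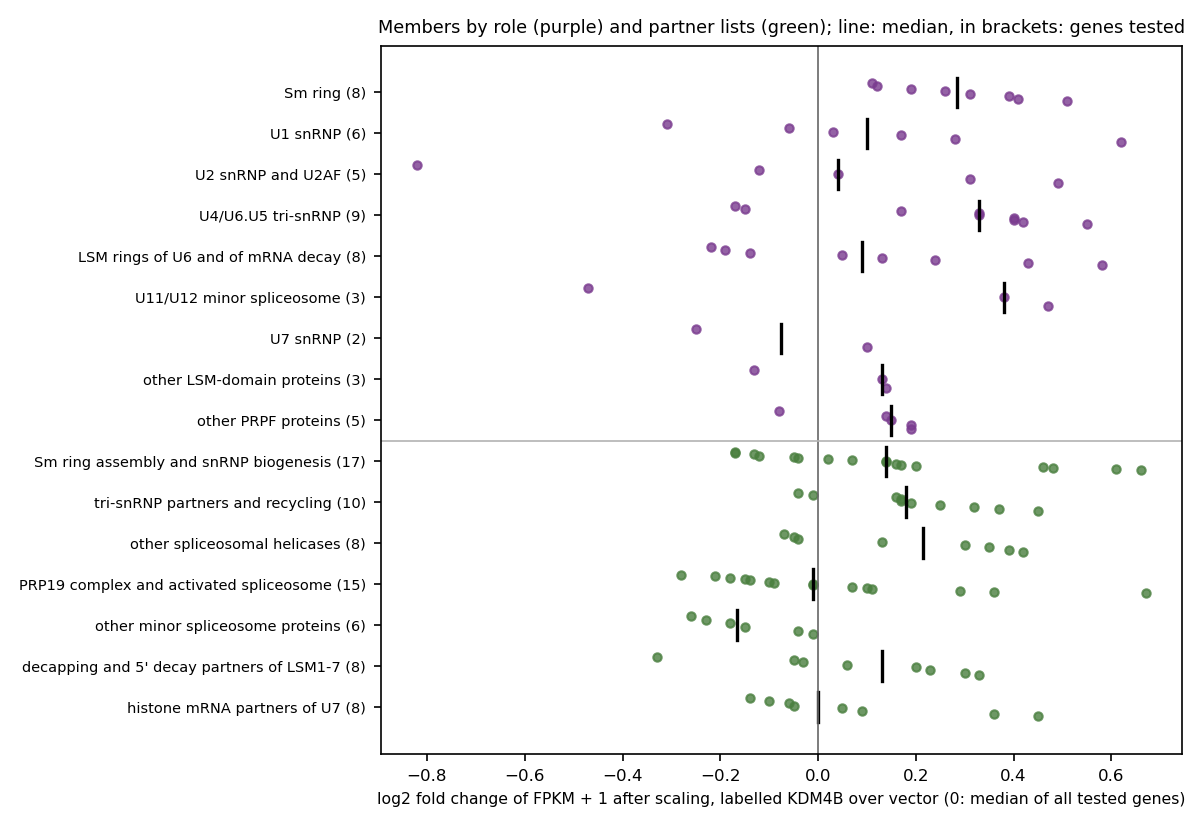
Log2 fold change of FPKM + 1 after scaling, KDM4B-labelled libraries over vector, with 1 point per gene; members by role are purple, partner lists are green, and black lines are medians. The Sm ring (median 0.29) and the tri-snRNP (0.33) lie mostly to the right of 0, and all 6 of the other minor spliceosome genes lie to the left (median -0.16).

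Read counts of splice events gave a further readout, with library scaling of its own (TMM). For each gene the reads of its most-read skipped exon event were tested with edgeR's quasi-likelihood test over 9546 genes, and 38 members had such an event. Of these, 19 were higher and 1 was lower in the KDM4B-labelled libraries, where 20.9% of all genes were called higher and 21.3% lower, with a median log2 fold change of 0.16. All 19 had also been called higher on scaled FPKM. Another 7 members higher on scaled FPKM were not called on event counts: SNRPD1, SNRPG, SNRPN, SNRPA, LSM12, LSM14B and PRPF38A. SNRNP70 (0.68), LSM3 (0.55), SNRPD2 (0.53) and U2AF2 (0.44) had the largest rises, and PRPF40B was the 1 gene called lower (-0.47, adjusted p = 0.0027). SNRNP48 (-0.24, adjusted p = 0.164), U2AF1 (-0.10, adjusted p = 0.191), SNRNP40 (-0.18, adjusted p = 0.167) and LSM14A (0.03, adjusted p = 0.772) had fallen on both FPKM scales and did not pass here. The LSM14A value rests on its most-read event alone, and its other skipped exon events were not tested. Another of them had 677, 745 and 578 raw reads in the KDM4B-labelled libraries and 982, 1007 and 919 in the vector libraries. A less-read event had 222, 230 and 231 raw reads in the KDM4B-labelled libraries and 294, 267 and 277 in the vector libraries. Raw reads are not scaled for depth. Skipped exon reads summed to 14247891, 14787321 and 14212396 in the KDM4B-labelled libraries and 17021204, 16781709 and 16451082 in the vector libraries. LSM2, LSM6, LSM8, LSM10 and U2AF1L4 had no skipped exon event and were not tested on these counts. U2AF1L4 had 1 alternative 5′ splice site event. Its raw reads, not separated by form, were 26, 34 and 31 in the KDM4B-labelled libraries and 64, 78 and 55 in the vector libraries. Those groups did not overlap, and the reads are given without a test.

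**Figure D5:**
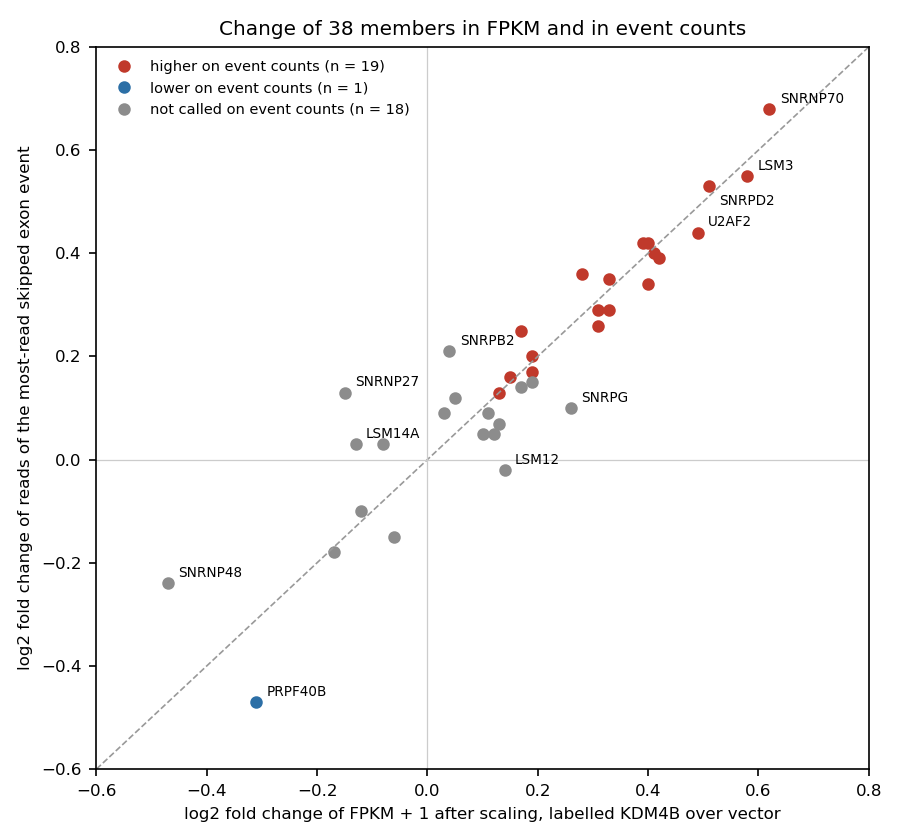
Log2 fold change of scaled FPKM + 1 (horizontal) and of reads of the most-read skipped exon event (vertical), KDM4B-labelled libraries over vector, for 38 members, with a dashed line of equality. The 19 members called higher on event counts lie in the upper right and PRPF40B is the 1 called lower, while SNRNP48 and LSM14A lie above the line.

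The members' own splicing was measured in 121 skipped exon events (38 genes), 29 mutually exclusive exon events (13 genes), 5 alternative 5′ splice site events (5 genes) and 4 retained intron events (1 gene). Each deposited count of a skipped exon or mutually exclusive event joins the reads of both forms. For the other types of event the forms are not given separately, and what their counts join was not checked. The reads of the 2 exons could be separated for 12 mutually exclusive events in 4 members (U2AF1, U2AF2, SNRPN and LSM14B). None was called with edgeR (2 had an unadjusted p below 0.05, and DESeq2 called 0), where 1.63% of the 2997 tested events were called. The forms of 22 skipped exon events were also separated, and too few skipping reads were left to test any. Most of the separated events of both types were in SNRPN, where the same exons recur in several events, so they are not independent. There the exon at chr15:25219458-25219603 was paired with chr15:25213079-25213229 and, in another event, with chr15:25221452-25221563. A transcript that holds both exons of a pair adds reads to both. The tested shares are therefore shares of exon reads, and the lack of calls says little about exclusive use. None of 3 testable alternative 5′ splice site events was called (0 with an unadjusted p below 0.05, and 0 with DESeq2), against 3.69% of 1193.

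U2AF1 has a pair of mutually exclusive exons of 67 bases each that give the U2AF1a and U2AF1b forms of the small subunit. In the deposited coordinates they lie at chr21:44520563-44520629 and chr21:44521476-44521542 on the minus strand, and the genome build of these coordinates is uncertain, since 7 of 121 members' skipped exons (5.79%) fell inside their gene on GRCh38. The U2AF1b exon took 31.8%, 33.8% and 32.1% of the reads of both exons in the KDM4B-labelled libraries, and 26.0%, 29.1% and 28.9% in the vector libraries. The groups did not overlap, and the log2 odds ratio of 0.32 did not pass after adjustment over all events (edgeR's quasi-likelihood test, adjusted p = 0.469). LSM14B was similar, with its first exon at 57.0%, 62.6% and 62.7% in the KDM4B-labelled libraries and 68.7%, 68.3% and 62.9% in the vector libraries (log2 odds ratio -0.36, adjusted p = 0.486). In SNRPN an event had its first exon at 17.7% ± 1.51 in the KDM4B-labelled libraries and 11.1% ± 6.11 in the vector libraries (± SD, 3 libraries each), with overlapping groups (adjusted p = 0.86). That exon had only 6, 6 and 5 reads in the KDM4B-labelled libraries and 1, 3 and 5 reads in the vector libraries. U2AF1 and LSM14B were named after their values were seen.

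All 4 retained intron events of members were in PRPF4B, on chromosome 6, and they overlap in one region, so they are not independent. Their counts were tested against the gene's summed skipped exon reads. The event at chr6:4062791-4065217 had 245, 242 and 295 reads in the KDM4B-labelled libraries and 391, 379 and 383 reads in the vector libraries. It fell by 0.52 on the log2 scale relative to the gene (adjusted p = 0.00291), where 5.36% of the 783 tested events were called lower and 8.3% higher. The event at chr6:4060647-4062533 had 62, 42 and 78 reads in the KDM4B-labelled libraries and 95, 86 and 107 reads in the vector libraries (-0.62, adjusted p = 0.0251). That call was lost without KDM4B replicate 2 (adjusted p = 0.15), without vector replicate 3 (0.0939) and with DESeq2 (0.075). The other 2 events were not called (-0.51, adjusted p = 0.172, and -0.44, adjusted p = 0.0942). Spliced and retained reads are not given separately, so these counts do not give the share retained. Nor do they hold all reads of the region. A skipped exon event on the exon at the same coordinates, chr6:4060647-4062533, had 952, 922 and 942 reads in the KDM4B-labelled libraries. In the vector libraries that skipped exon event had 1076, 877 and 976 reads. In LSM12, 1 skipped exon event (chr17:42117515-42117624) had 6, 3 and 4 reads in the KDM4B-labelled libraries and 159, 8 and 9 reads in the vector libraries, where vector replicate 1 stood apart from the other 5 libraries.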

How the data were processed

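Gene expression was deposited by the authors as FPKM per gene and library, and splice events (skipped exon, mutually exclusive exons, alternative 5′ splice site, retained intron) as raw read counts. Per the submitters' processing notes, Cufflinks, HISAT and StringTie were used with GRCh38 (hg38), without versions or roles. Sequencing gave 6.59 gigabases per library on average, per the labels. Event counts summed to 14212396 to 17021204 reads per library for skipped exons. The sources used here do not give the depth behind single FPKM values, which therefore carry no counting interval.

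Genes with mean FPKM of at least 1 were tested as log2(FPKM + 1) with limma 3.58.1 (intensity trend on) in R 4.3.3, with Benjamini-Hochberg adjustment over all tested genes and a threshold of 0.05. This scale understates the change of low genes. The second scale divided each library by its median-of-ratios factor (0.904, 0.9416 and 0.9144 for the KDM4B-labelled libraries, and 1.087, 1.091 and 1.091 for vector). Event counts were tested with edgeR 4.0.16 (quasi-likelihood, TMM), and DESeq2 1.42.0 as an alternative. A floor of 10 reads per library applied to the splice form, alternative 5′ splice site and retained intron tests. The main fit of each gene's most-read skipped exon event did not use that floor. Adding it there again gave 19 members higher and 1 lower. Skipping reads were recovered from the counts of 2 skipped exon events and their mutually exclusive event, and 99.98% of the recovered values were even and not negative. The scripts were tested on simulated data. No pair of libraries was a copy: chi-square per degree of freedom was 28.464 to 33.796 between groups and 2.416 to 2.965 within groups.

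The members, role groups, partner lists and tests were chosen with earlier results of these data known. Values per library were given for members called on both scales, the 3 most abundant of each role and U2AF1, U2AF2, PRPF8, SNRNP200, EFTUD2, SNRNP70, PRPF19 and PRPF31, and the 3 genes with the lowest p of each partner list were named. The 3 helicases higher on both scales were named as well. Member genes were matched to RefSeq by gene ID (50 of 50, 49 under the same symbol). The values of 1 member are not reported here, although the counts include it.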

Additional observations from a re-analysis of the deposited data

How the results depend on the processing

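With a pseudocount of 0.1, no filter, or a mean FPKM of at least 5, 13 members were higher and 18 lower, the same numbers as in the fit described, and without the intensity trend 13 and 17. The members differed in part. With no filter LSM4 lost its limma call (adjusted p = 0.0623) and PRPF6 was called lower (0.0462). At a mean FPKM of at least 5, LSM8 was left out and SNRPD1 was called lower (0.0452). Without the trend LSM4 lost its call (0.0736). Equal sums without ribosomal RNA genes gave 32 higher and 11 lower, median-of-ratios scaling 32 and 10, and edgeR on event counts 19 and 1, the last from 38 members. With 1 library left out, 13 to 15 were higher and 16 to 23 lower as deposited, 30 to 32 higher and 6 to 9 lower after scaling (6 lower without KDM4B replicate 1 or vector replicate 1), and 14 to 20 higher and 1 lower on event counts. DESeq2 on event counts called 17 higher and 1 lower. The separated splice forms had 0 calls under every alternative run. The alternative 5′ splice site and retained intron events had 2 calls, 1 with DESeq2, and 1 to 2 with 1 library left out.

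Replicate numbers 1 and 2 occur in both groups, and the deviations of same-numbered libraries correlated at -0.024 and 0.135, so the numbers were not taken as pairs. With the replicate number as a block, 12 members were higher and 17 lower as deposited, 29 and 9 after scaling, 16 and 2 on event counts, 0 splice forms were called and 0 of the alternative 5′ splice site and retained intron events were called (adjusted p = 0.0834 and 0.152 for the PRPF4B events). Calls lost with the block were LSM4 (adjusted p = 0.0581) and SNRNP25 (0.0651) as deposited, and LSM4 (0.0557), SNRPN (0.133), SNRPD1 (0.0811), LSM2 (0.242) and LSM6 (0.203) after scaling, while SNRNP27 passed after scaling (0.0269). LSM5 was -0.0031 with the block.

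Direction turned to positive in 16 members under both rescalings, with log2 fold changes after median-of-ratios scaling and then with equal sums without ribosomal RNA genes of 0.19 and 0.17 for SNRPB, 0.19 and 0.18 for PRPF19, 0.13 and 0.12 for LSM4, 0.11 and 0.10 for SNRPN, 0.17 and 0.16 for PRPF6, 0.12 and 0.11 for SNRPD1, 0.17 and 0.16 for SNRPA, 0.19 and 0.18 for PRPF38A, 0.13 and 0.12 for LSM14B, and 0.14 and 0.13 for LSM12. For the others they were 0.05 and 0.04 for LSM1, 0.04 and 0.03 for SNRPB2, 0.14 and 0.13 for PRPF38B, 0.15 and 0.14 for PRPF4B, 0.03 and 0.02 for PRPF39, and 0.10 and 0.10 for LSM11. On event counts 17 turned, with 0.17 for SNRPB, 0.20 for PRPF19, 0.13 for LSM4, 0.09 for SNRPN, 0.25 for PRPF6, 0.05 for SNRPD1, 0.14 for SNRPA, 0.15 for PRPF38A, 0.03 for LSM14A, 0.07 for LSM14B, 0.12 for LSM1, 0.21 for SNRPB2, 0.16 for PRPF4B, 0.09 for PRPF39, 0.13 for SNRNP27, 0.03 for PRPF18 and 0.05 for LSM11. With 1 library left out, SNRPG was -0.01 (without vector replicate 2), LSM5 -0.02 (without KDM4B replicate 4) and PRPF39 after scaling -0.01 (without KDM4B replicate 4, and up to 0.06 with another library left out), none of which passed the test, and the cause was not tested.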
